A study of Homo sapiens with 6 samples.

Results

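The genes that mark and pigment the melanocyte were followed in melanoma cells with RIPK4 silencing, and 10 were taken by name: MITF, SOX10, PAX3, TYR, TYRP1, DCT, PMEL, MLANA, GPNMB and TRPM1. All 10 were found among the 24526 genes of the deposited count table, and all 10 were among the 16297 genes with enough counts to be tested. WM266.4, an established human melanoma cell line, received an siRNA against RIPK4 (RIPK4.si, 3 libraries) or a negative control siRNA (neg.si, labelled control.si, 3 libraries). RNA was isolated 48 h later from 3 experiments that the study calls independent, and the libraries were made from mRNA. Neither group received another agent, and each group rests on 1 siRNA in 1 cell line, so neither another siRNA nor normal melanocytes were compared here. The question asked here was whether the transcripts of the pigment program differed between RIPK4-silenced and control cells.

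Melanocytes arise from the neural crest, and the transcription factors SOX10 and PAX3 switch on MITF, the factor that drives much of the pigment program. TYR, TYRP1 and DCT are the enzymes of melanin synthesis, PMEL forms the fibrils on which melanin is laid down inside the melanosome, and MLANA and GPNMB are membrane proteins of melanosomes and related organelles. In melanoma these genes are read as signs of how far a tumor has kept its melanocytic state.

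Silencing of RIPK4 was accompanied by a lower level of PMEL, which fell to 40.6% of the neg.si mean. DCT stood at 60.4% and TYR at 67.6% of the neg.si mean, with no overlap between the groups, but neither passed the test after adjustment for all genes. MITF, SOX10 and PAX3 did not pass the test, and neither did TYRP1, MLANA, GPNMB and TRPM1. Values of single libraries are given in the order of replicates 1, 2 and 3. The 10 genes together took 0.501%, 0.483% and 0.538% of all counts in the neg.si libraries and 0.412%, 0.353% and 0.384% in the RIPK4.si libraries. In these bulk samples, fewer cells of a type and less RNA per cell cannot be told apart.

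MITF binds short sequences such as TCATGTG and CACGTG, so both were searched on either strand of the RefSeq promoter windows (GRCh38.p14), each running from 250 bases before to 50 bases after an annotated start. TCATGTG reads CACATGA on the opposite strand, CACGTG reads the same on both, and no 2 of these matches can share a base. Windows were found for 8 of the 10 genes, not for SOX10 and PMEL. TCATGTG stood in 4 of these 8 genes (TYR, TYRP1, DCT and GPNMB), against 2.92% of all 35116 windows and 3.59% of the 27305 genes with a window. CACGTG stood in 0 of the 8, against 7.26% of windows and 8.77% of genes. The 6 matches are shown because 3 of the 4 genes that carry them encode the pigment enzymes, whose levels are compared further on. Each is printed in the sense of the gene with its match in capitals. They lie at chr11:89177744-89177803 on the plus strand for TYR, at chr9:12693214-12693273 on the plus strand for TYRP1, at chr13:94479784-94479843 and chr13:94479864-94479923 on the minus strand for DCT, and at chr7:23246626-23246685 and chr7:23246687-23246746 on the plus strand for GPNMB.
TYR: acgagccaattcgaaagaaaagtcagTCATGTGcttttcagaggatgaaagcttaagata
TYRP1: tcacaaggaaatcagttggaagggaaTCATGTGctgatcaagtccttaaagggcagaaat
DCT, nearer the start: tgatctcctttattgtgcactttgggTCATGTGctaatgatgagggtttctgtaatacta
DCT, farther from the start: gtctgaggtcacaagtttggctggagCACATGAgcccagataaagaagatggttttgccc
GPNMB, farther from the start: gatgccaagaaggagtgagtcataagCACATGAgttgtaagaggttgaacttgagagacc
GPNMB, nearer the start: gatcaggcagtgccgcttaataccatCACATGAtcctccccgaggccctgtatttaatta
Counted from the annotated start, the first base of the match lies at -105 in TYR, -145 in TYRP1, -135 and -215 in DCT and -123 and -62 in GPNMB. A match is a run of letters and no measured binding.

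Counts on genes summed to between 28464057 and 31688095 per library. RIPK4, the targeted gene, stood at 85.8, 76.5 and 54.7 CPM (read counts as parts per 1000000 of the TMM-normalized library size) in the neg.si libraries. The silenced libraries held 19.9, 16.7 and 21.5 CPM, and the log2 fold change was -1.90 (SE 0.203, edgeR's quasi-likelihood test, adjusted p = 0.0102). With each library left out it stayed between -2.06 and -1.74, and its adjusted p was 0.106 without neg.si replicate 2 and 0.0940, 0.0622 and 0.0725 without RIPK4.si replicates 1, 2 and 3. The neg.si libraries differed from each other along gene composition. For each library, the deviation of a gene from its mean over all 6 libraries was rank correlated with GC content. This correlation was 0.574 in neg.si replicate 1, 0.0803 in replicate 2 and -0.571 in replicate 3, against -0.0816 to 0.172 in RIPK4.si. Genes rich in GC were thus read high in neg.si replicate 1 and low in neg.si replicate 3. With this trend removed, RIPK4 stood at 72.0, 74.8 and 67.2 CPM in the neg.si libraries and at 20.0, 15.9 and 21.6 CPM in the RIPK4.si libraries.

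Melanocytic markers were present in every library. The 6 on the list (MITF, SOX10, PMEL, MLANA, TYR and S100B) all passed the filter, and their sum ranged from 2731 to 3353 CPM in neg.si and from 2164 to 2309 CPM in RIPK4.si. Keratinocyte markers summed to 10.6 to 11.98 CPM in neg.si and 12.3 to 16.3 CPM in RIPK4.si, nearly all of it KRT10, with KRT14 at no more than 5 counts in any library. The fibroblast list summed to 634 to 818 CPM and 513 to 1042 CPM, nearly all of it COL1A2, which reached 1039 CPM, while COL1A1, COL3A1, DCN, LUM and PDGFRA held at most 9, 11, 4, 42 and 33 counts in any library. The part of these markers in the results was not tested. Leukocyte markers reached at most 2.58 CPM and endothelial markers at most 1.56 CPM in any library.

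PMEL encodes the fibril protein of the early melanosome. It was read at 312, 279 and 249 CPM in the neg.si libraries and at 117, 104 and 119 CPM in the RIPK4.si libraries. All 3 silenced libraries lay far below the lowest control. The mean fell from 280.0 ± 31.5 to 114 ± 8.11 CPM (SD, n = 3 each), a log2 fold change of -1.30 (SE 0.152, 95% interval -1.64 to -0.96, edgeR's quasi-likelihood test, adjusted p = 0.0111). PMEL was the only one of the 10 genes that edgeR called at an adjusted p under 0.05, where the test called 125 of 16297 genes (0.767%), 64 of them lower in RIPK4.si (0.393%). With the GC trend removed, the neg.si libraries stood at 283, 272 and 276 CPM, and the log2 fold change was again -1.30 (adjusted p = 0.00161 in edgeR). The study shows PMEL among the genes it chose on these same libraries. PMEL was also measured there by quantitative RT-PCR and reported as decreased after silencing. Its log2 fold change stayed between -1.38 and -1.20 with each library left out in turn, yet the adjusted p in edgeR was 0.129 without neg.si replicate 2 and 0.0992, 0.0738 and 0.121 without RIPK4.si replicates 1, 2 and 3. Without neg.si replicate 2, RIPK4.si replicate 1 or RIPK4.si replicate 3, the test called 0 genes in all, while 1153, 1426 and 1086 genes had an unadjusted p under 0.05.

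**Figure D1:**
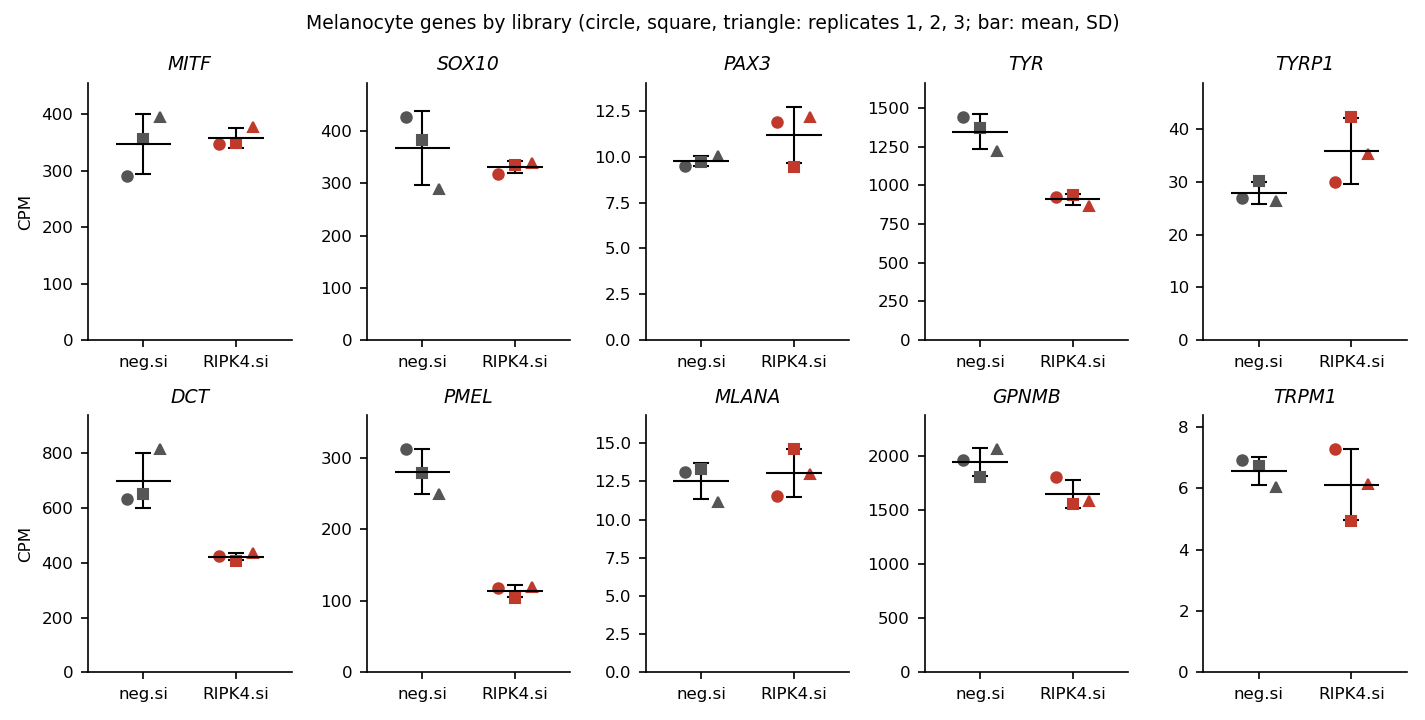
CPM of the 10 genes (vertical axes, each from 0) in the 3 neg.si (grey) and 3 RIPK4.si (red) libraries, with circle, square and triangle for replicates 1, 2 and 3 and the mean and SD as bars. PMEL, DCT, TYR and GPNMB show no overlap between groups, with RIPK4.si below, and the other 6 overlap.

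None of the 3 enzymes of melanin synthesis passed the test after adjustment for all genes. TYR encodes tyrosinase, which catalyses the first step. It lay at 1446, 1372 and 1226 CPM in the neg.si libraries and at 925, 937 and 869.6 CPM in the RIPK4.si libraries. No silenced library reached the lowest control. The means were 1348 ± 112 and 910.7 ± 36.1 CPM (SD, n = 3 each), a log2 fold change of -0.57 (SE 0.148, 95% interval -0.90 to -0.23), with an unadjusted p of 0.00389 and an adjusted p of 0.148 in edgeR's quasi-likelihood test. With DESeq2, the adjusted p was 0.0417. Removing the GC trend drew the neg.si libraries of TYR apart, to 1528, 1359 and 1111 CPM, still above all RIPK4.si libraries, and gave an adjusted p of 0.117 in edgeR.

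DCT encodes dopachrome tautomerase, which acts between the steps of the other two enzymes in the eumelanin branch. Its level was 632, 651 and 816 CPM in the neg.si libraries and 424, 408 and 435 CPM in the RIPK4.si libraries. Groups were again apart, and neg.si replicate 3 stood above the other controls as measured. With the GC trend removed, the neg.si libraries stood at 728, 653 and 674 CPM and the RIPK4.si libraries at 416, 432 and 423 CPM. The means were 699.6 ± 101 and 423 ± 13.6 CPM, a log2 fold change of -0.73 (SE 0.157, 95% interval -1.08 to -0.37), with an unadjusted p of 0.00114 and an adjusted p of 0.0854 in edgeR's quasi-likelihood test. DESeq2 gave an adjusted p of 0.00361 and edgeR with the GC trend removed 0.0205, so the call for DCT turned on the fit and its size did not.

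TYRP1 encodes the enzyme of a later step and stood at 26.99, 30.2 and 26.4 CPM in the neg.si libraries and at 30.0, 42.4 and 35.3 CPM in the RIPK4.si libraries. The groups overlapped, with the highest values in RIPK4.si, and they also overlapped with the GC trend removed (31.0, 30.3 and 21.9 CPM against 29.5, 44.9 and 34.3 CPM). Its log2 fold change was 0.36 (SE 0.173, 95% interval -0.02 to 0.75, adjusted p = 0.502 in edgeR's quasi-likelihood test). Per length, TYRP1 stood at 0.0144 ± 0.00127 of the TYR level in neg.si and at 0.0274 ± 0.00449 in RIPK4.si, 1.89-fold higher. Against DCT the ratio was 0.0818 ± 0.0146 and 0.172 ± 0.0342, 2.10-fold higher. Neither ratio overlapped between the groups, and the two-sided exact permutation p was 0.1 for each, the smallest that 3 against 3 libraries can give (0.114 adjusted over the 8 ratios computed).

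Of the regulators, MITF lay at 291, 356 and 396 CPM in the neg.si libraries and at 347, 349 and 378 CPM in the RIPK4.si libraries. The silenced libraries fell inside the range of the controls. Its log2 fold change was 0.04 (SE 0.160, adjusted p = 0.975 in edgeR's quasi-likelihood test), and the 95% interval ran from 0.802-fold to 1.32-fold of the neg.si level. MITF is poor in GC (41.2%), and with the GC trend removed its neg.si libraries stood at 329, 356 and 334 CPM, where their coefficient of variation was 4.30% in place of 15.3%. The log2 fold change was then 0.08.

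SOX10 stood at 428, 384 and 289.9 CPM in the neg.si libraries and at 319, 334 and 340.0 CPM in the RIPK4.si libraries, again inside the control range. Its log2 fold change was -0.15 (SE 0.172, 95% interval -0.54 to 0.24, adjusted p = 0.876 in edgeR's quasi-likelihood test). Leaving out neg.si replicate 3 gave -0.29, and leaving out neg.si replicate 1 gave -0.0088. SOX10 is rich in GC (62.3%), and its neg.si libraries went in the opposite order to those of MITF. With the GC trend removed they stood at 338, 378 and 386 CPM and the RIPK4.si libraries at 327, 310.1 and 334 CPM, so the groups no longer overlapped, although the adjusted p was 0.542.

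PAX3 was read low, at 9.49, 9.69 and 10.04 CPM in the neg.si libraries and at 11.9, 9.41 and 12.2 CPM in the RIPK4.si libraries. RIPK4.si replicate 2 lay below all controls and the other two above them. The log2 fold change was 0.20 (SE 0.175, 95% interval -0.20 to 0.59, adjusted p = 0.814 in edgeR's quasi-likelihood test).

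GPNMB, a glycoprotein of melanosomes and lysosomes, was the most counted of the 10, at 1962, 1807 and 2065 CPM in the neg.si libraries and 1801, 1558 and 1587 CPM in the RIPK4.si libraries. The groups did not overlap, but RIPK4.si replicate 1 lay just under the lowest control. Its log2 fold change was -0.24 (SE 0.153, 95% interval -0.58 to 0.11, adjusted p = 0.684 in edgeR's quasi-likelihood test). MLANA, the antigen also known as MART-1, lay between 11.1 and 13.3 CPM in neg.si and between 11.5 and 14.6 CPM in RIPK4.si, with a log2 fold change of 0.06 (SE 0.174, 95% interval -0.33 to 0.45). TRPM1, a cation channel whose intron holds the gene of the microRNA miR-211, lay between 6.04 and 6.94 CPM in neg.si and between 4.95 and 7.29 CPM in RIPK4.si, with a log2 fold change of -0.10 (SE 0.203, 95% interval -0.56 to 0.36). With the GC trend removed, MLANA stood at 14.9, 13.3 and 9.31 CPM in the neg.si libraries and at 11.3, 15.5 and 12.7 CPM in the RIPK4.si libraries, a wider spread in both groups. MLANA and TRPM1 overlapped between the groups, and their adjusted p-values were 0.963 and 0.944 in the same test. TRPM1 had 143 to 215 counts per library, the fewest of the 10.

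**Figure D2:**
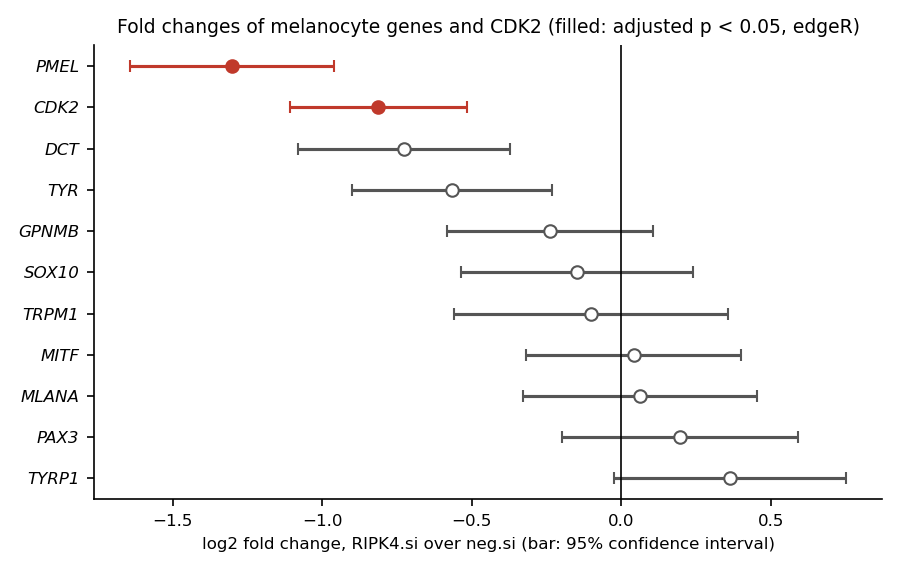
Log2 fold change of RIPK4.si over neg.si (horizontal axis) with its 95% interval for the 10 genes and for CDK2, which lies inside PMEL, with filled points for an adjusted p under 0.05 in edgeR. PMEL at -1.30 and CDK2 at -0.81 are filled, the intervals of DCT and TYR lie below 0, and those of the other 7 genes include 0.

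Across the 10 genes the median log2 fold change was -0.12, where that of all genes tested was -0.02. It was below 0 for 6 genes and above 0 for 4. At an unadjusted p under 0.05, 3 of the 10 were lower and 0 higher, where edgeR reached this level for 10.8% of all genes. Library values were fully separated between the groups for 4 of the 10, all with RIPK4.si below, where 17.6% of the genes tested were separated and 9.4% with RIPK4.si below. DESeq2 called 3 of the 10 (PMEL, DCT and TYR), where it called 2.78% of the 15490 genes it gave an adjusted p. With the GC trend removed, edgeR called 2 of the 10 (PMEL and DCT), where it called 3.29% of 16239 genes.

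Levels of different genes were compared per length, as CPM per kilobase of annotated exons (RPKM). In neg.si the mean RPKM was 519.8 for TYR, 329 for GPNMB, 92.8 for DCT, 76.3 for PMEL, 76.1 for SOX10, 46.9 for MITF, 7.47 for TYRP1, 4.18 for MLANA, 1.23 for PAX3 and 0.898 for TRPM1. TYR ranked 37 and GPNMB 64 among 16239 genes by this level, whereas MLANA ranked 6803 and TRPM1 11505. Neighbours in this order were apart in their library values except DCT and PMEL and PMEL and SOX10, whose ranges overlapped. In RIPK4.si, PMEL at 30.9 RPKM lay below SOX10 (68.6), DCT (56.0) and MITF (48.2). The level of PMEL per length was 1.67 ± 0.457 times that of MITF in neg.si and 0.642 ± 0.0396 times in RIPK4.si. For TYR the ratio to MITF was 11.4 ± 2.71 and 7.30 ± 0.617, and for DCT it was 1.99 ± 0.174 and 1.16 ± 0.0348. PMEL stood at 18.3 ± 1.17 times MLANA in neg.si and 7.20 ± 1.28 times in RIPK4.si. The groups did not overlap in any of these 4 ratios, each with a two-sided exact permutation p of 0.1 (n = 3 each, 0.114 adjusted over the 8 ratios). TYRP1 to MITF was 0.162 ± 0.0266 and 0.200 ± 0.0370, and these groups overlapped (exact permutation p = 0.2, n = 3 each).

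**Figure D3:**
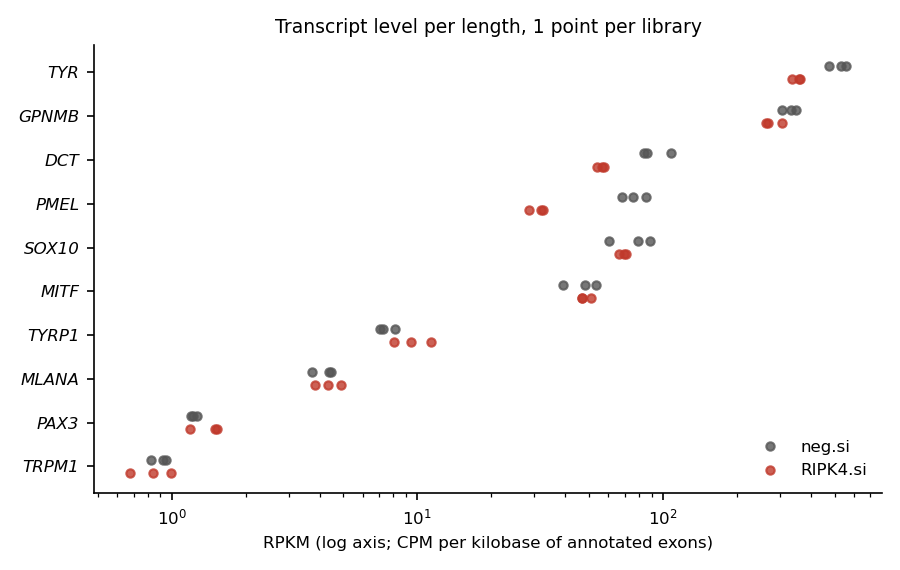
RPKM on a log axis (horizontal) for each of the 10 genes, ordered by the neg.si mean, with 1 point per library (grey neg.si, red RIPK4.si). TYR and GPNMB stand highest in both groups, MLANA, PAX3 and TRPM1 lowest, and PMEL passes from 76.3 RPKM in neg.si to 30.9 RPKM in RIPK4.si, below MITF at 48.2.

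On GRCh38, with the annotation of GENCODE release 44, PMEL (ENSG00000185664) lies at chr12:55954105-55973317 on the minus strand and holds the whole of CDK2 (ENSG00000123374, chr12:55966781-55972789, plus strand), the gene of a cell cycle kinase. Of 19 annotated PMEL transcripts, 1 spans CDK2, and the other 18 start to the left of it, 5 of them within 500 bases and the nearest 45 bases away. The 2 genes therefore start close together and face away from each other, and they share 89 exon bases (2.424% of the 3671 exon bases of PMEL). CDK2 stood at 115, 110.1 and 112 CPM in the neg.si libraries and at 65.3, 64.2 and 62.1 CPM in the RIPK4.si libraries. The groups were far apart, and CDK2 fell by 0.81 on the log2 scale (SE 0.132, edgeR's quasi-likelihood test, adjusted p = 0.0355). That call was lost without neg.si replicate 1 (0.0593) or 2 (0.279) and without RIPK4.si replicates 1, 2 or 3 (0.184, 0.126 and 0.311). Because the authors counted without regard to strand, reads on the shared bases could not be assigned by strand. AC025162.1, a non-coding gene inside PMEL on the same strand, shares no exon base with it and had 11 to 51 counts per library (log2 fold change -0.63, adjusted p = 0.743, from -1.20 without RIPK4.si replicate 1 to -0.28 without RIPK4.si replicate 2). The counts of PMEL and CDK2 summed gave a log2 fold change of -1.14 (adjusted p = 0.0167 in edgeR's quasi-likelihood test). Both genes were also lower on their own, so the sum cannot show how reads on the shared bases were assigned. PMEL per length was 2.64 ± 0.260 times CDK2 in neg.si and 1.89 ± 0.157 times in RIPK4.si, with no overlap (exact permutation p = 0.1, n = 3 each).

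**Figure D4:**
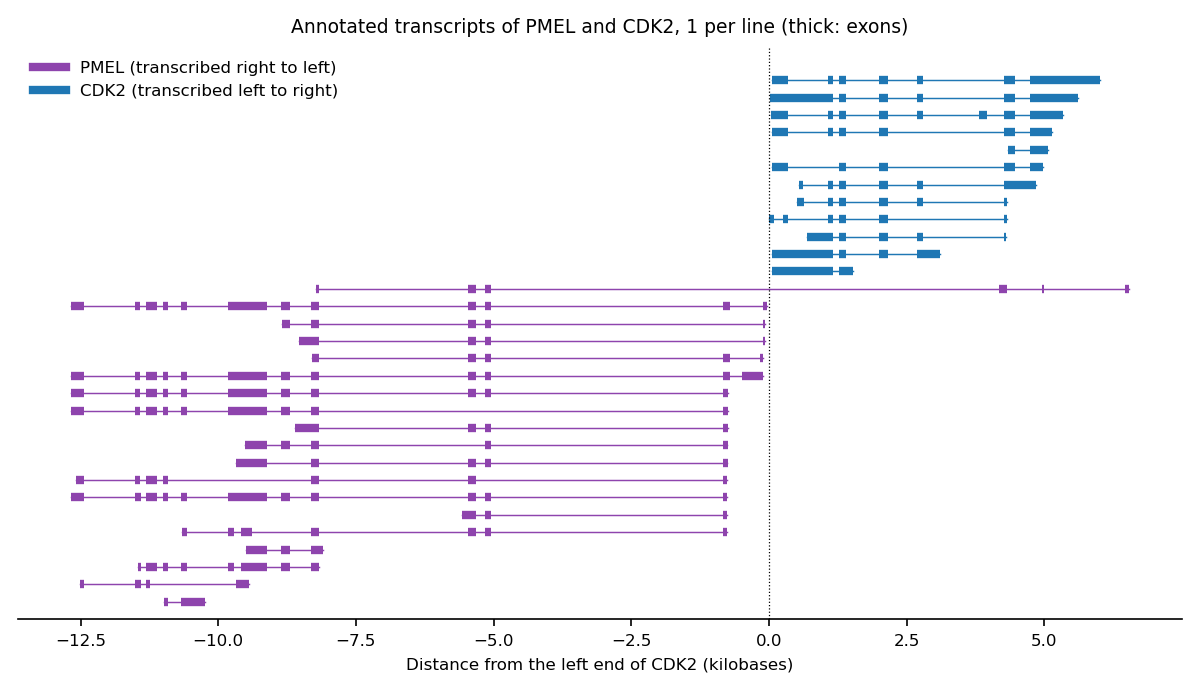
Annotated transcripts of PMEL (purple, 19) and CDK2 (blue, 12), 1 per line, with exons as thick bars, over the distance from the left end of CDK2 in kilobases (horizontal axis). PMEL is transcribed toward the left and CDK2 toward the right, and 1 PMEL transcript runs across CDK2.

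TYR (ENSG00000077498) lies at chr11:89177875-89295759 and has a partial copy, the pseudogene TYRL, on the same chromosome at chr11:49405091-49415789. Of 1963 windows of 100 bases along the longest TYR transcript, 53 (2.7%) occur unchanged in TYRL, so reads in those windows could belong to either. CBX3P7, a pseudogene inside TYR that shares no exon base with it, stood at 3.84 ± 2.41 CPM in neg.si and 3.09 ± 1.34 CPM in RIPK4.si. SOX10 (ENSG00000100146, chr22:37970686-37987422) lies inside POLR2F, which encodes an RNA polymerase subunit on the opposite strand, and shares 260 exon bases with it (5.387% of SOX10). POLR2F stood at 49.5 ± 19.7 CPM in neg.si and 46.7 ± 5.27 CPM in RIPK4.si. TYRP1 (ENSG00000107165, chr9:12685439-12710285) shares 102 exon bases (2.73%) with LURAP1L-AS1, which had 1 to 8 counts per library. TRPM1 (ENSG00000134160, chr15:31001065-31161160) shares 334 (4.562%) with AC009562.1, which had 0 to 5 counts, and MIR211 inside it had 0 to 4 counts. MLANA (ENSG00000120215, chr9:5890889-5910606) lies inside KIAA2026, which stood at 14.6 ± 8.21 CPM in neg.si and 13.9 ± 3.64 CPM in RIPK4.si, and shares no exon base with it. No counted gene shared exon bases with MITF (ENSG00000187098, chr3:69739456-69968336), PAX3 (ENSG00000135903, chr2:222199887-222298998), DCT (ENSG00000080166, chr13:94436811-94479682) or GPNMB (ENSG00000136235, chr7:23235967-23275108).

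Other genes around the pigment program were read from 4 lists. Of 15 further regulators of melanocytes, 13 were tested, 1 fell and 0 rose in edgeR (0.767% of all genes were called, 0.393% lower in RIPK4.si). At an unadjusted p under 0.05, 2 were below and 2 above (10.8% of all genes tested reached this level), and DESeq2 called 2 below and 0 above (2.78% of all genes). The gene that fell was SOX8, a neural crest factor of the same family as SOX10. It stood at 33.7, 23.2 and 20.7 CPM in the neg.si libraries and at 8.14, 7.93 and 7.88 CPM in the RIPK4.si libraries, a log2 fold change of -1.70 (SE 0.211, adjusted p = 0.0157). Its groups were well apart, also with the GC trend removed (25.99, 22.9 and 28.4 CPM against 8.44, 7.29 and 7.65 CPM), and the study lists it among the genes it chose on these libraries. The adjusted p of SOX8 was 0.120 without neg.si replicate 2 and 0.110, 0.0968 and 0.136 without RIPK4.si replicates 1, 2 and 3. EDNRB, the endothelin receptor of melanoblasts, was picked after its values were seen and stood at 465 ± 53.0 CPM in neg.si and 288 ± 36.8 CPM in RIPK4.si (log2 fold change -0.69, adjusted p = 0.115 in edgeR, 0.0188 in DESeq2, and 0.0503 in edgeR with the GC trend removed). TFAP2A and SOX9, picked likewise, had log2 fold changes of 0.50 and 0.57 (adjusted p = 0.196 and 0.255 in edgeR, 0.0900 and 0.112 in DESeq2, and 0.0469 and 0.0940 in edgeR with the GC trend removed). A replicate block added to that last edgeR fit gave adjusted p-values of 0.0707 for TFAP2A and 0.0625 for SOX9. The median of the list was -0.08.

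Of 31 genes of melanosome biogenesis and transport, 30 were tested and 0 passed in edgeR (0.767% of all genes did). At an unadjusted p under 0.05, 3 were above and 2 below, where 10.8% of all genes reached this level, and DESeq2 called 3, where it called 2.78% of all genes. Those 3 had different signs. BACE2, a protease that cuts the PMEL protein, stood at 343 ± 29.6 CPM in neg.si and 553 ± 52.1 CPM in RIPK4.si (log2 fold change 0.69, adjusted p = 0.0900 in edgeR and 0.00462 in DESeq2). BLOC1S2, a subunit of a complex that sorts cargo to melanosomes, stood at 42.3 ± 2.74 and 25.9 ± 2.92 CPM (-0.71, 0.0880 in edgeR and 0.0140 in DESeq2). HPS5, a subunit of another such complex, stood at 144 ± 33.4 and 84.1 ± 16.8 CPM (-0.78, 0.171 in edgeR and 0.0321 in DESeq2). The median of the list was -0.01, against -0.02 for all genes.

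Of 33 further genes linked to MITF, all were tested, and edgeR called 1, CDK2, described above (0.767% of all genes were called), where DESeq2 called 3 below and 0 above (2.78% of all genes). At an unadjusted p under 0.05, 7 were below and 2 above, against 10.8% of all genes at this level. Library values were fully separated for 12, with RIPK4.si below for 8 and above for 4, against 17.6% of all genes in either direction and 9.4% with RIPK4.si below. SEMA6A, a semaphorin, and SORT1, a sorting receptor, had log2 fold changes of -1.23 and -0.67 (adjusted p = 0.106 and 0.156 in edgeR, 0.00291 and 0.0302 in DESeq2, and 0.0372 and 0.0433 in edgeR with the GC trend removed). RRAGD, a GTPase of amino acid sensing, had 0.58 (adjusted p = 0.158 in edgeR, 0.0570 in DESeq2, and 0.0923 in edgeR with the GC trend removed). With the GC trend removed, edgeR called 5 of the list (3.29% of all genes were called), among them TBC1D16 above 0 and IGSF8 below 0, whose log2 fold changes as measured were 0.63 and -0.59 (adjusted p = 0.183 and 0.367 in edgeR, 0.0698 and 0.303 in DESeq2). With the replicate block added to that edgeR fit, CDK2, SEMA6A and TBC1D16 kept the call, and SORT1 (adjusted p = 0.0625) and IGSF8 did not. SEMA6A, SORT1, RRAGD, TBC1D16 and IGSF8 were picked after their values were seen. The study displays CDK2, SEMA6A and SORT1, and BLOC1S2 and EDNRB of the lists above, among the genes it chose on these libraries. The median of the list was -0.06.

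Of 24 genes that mark dedifferentiated melanoma cells, 21 were tested, 2 rose and 0 fell in edgeR (0.767% of all genes were called in either direction). At an unadjusted p under 0.05, 3 were above and 1 below (10.8% of all genes reached this level), and DESeq2 called 3 above and 1 below (2.78% of all genes). The risen genes were CCN1 and CCN2, secreted matrix proteins that are classic targets of YAP and TAZ. CCN1 stood at 5.39, 5.96 and 5.79 CPM in the neg.si libraries and at 13.5, 17.1 and 13.7 CPM in the RIPK4.si libraries (log2 fold change 1.37, SE 0.180, adjusted p = 0.0196). CCN2 stood at 56.8, 62.6 and 58.9 CPM and at 131, 149 and 139.9 CPM (1.24, SE 0.139, adjusted p = 0.0102). Both were apart between the groups, and both are among the genes the study chose on these libraries. Leaving out neg.si replicate 2 gave them adjusted p-values of 0.174 and 0.129 in edgeR, and without RIPK4.si replicates 1, 2 and 3 they were 0.0992, 0.0942 and 0.129 for CCN1 and 0.0940, 0.0593 and 0.100 for CCN2. The receptors AXL and NGFR, the usual marks of that state, had log2 fold changes of 0.27 and -0.28 (adjusted p = 0.581 and 0.767). NT5E, an ectonucleotidase, and THBS1, the matrix protein thrombospondin, were picked after their values were seen and had log2 fold changes of -0.71 and 0.71 (adjusted p = 0.0761 and 0.130 in edgeR, 0.00393 and 0.0110 in DESeq2, and 0.0294 and 0.0253 in edgeR with the GC trend removed). The study also displays THBS1 among the genes it chose on these libraries. The median of the list was 0.15.

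**Figure D5:**
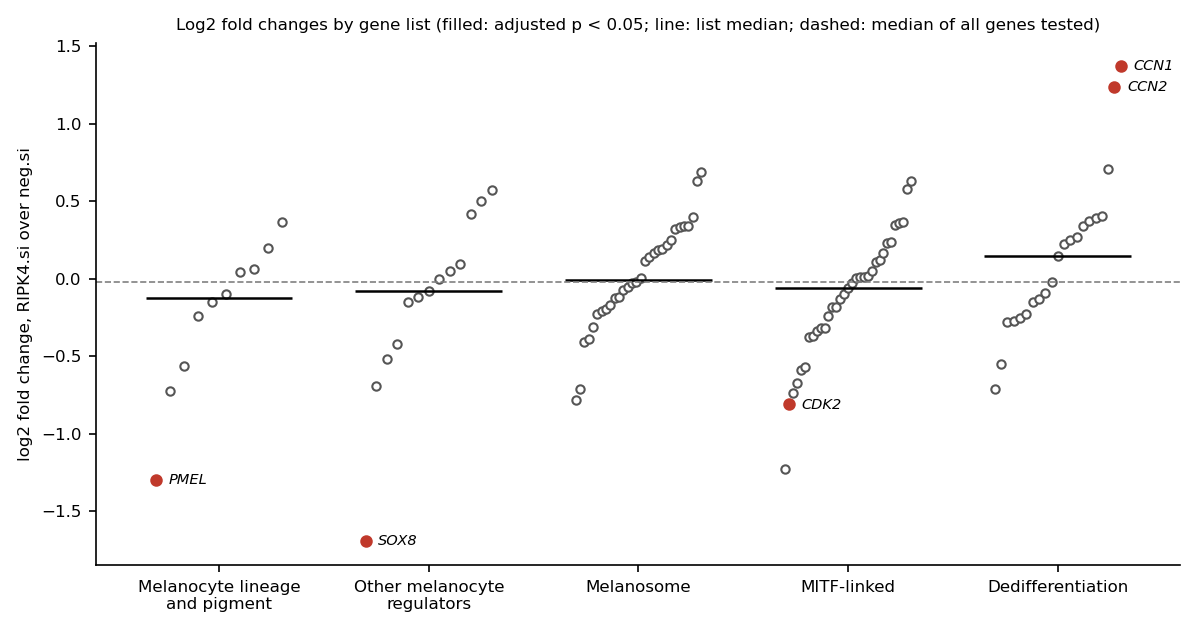
Log2 fold change of RIPK4.si over neg.si (vertical axis) for each tested gene of the 10 melanocyte genes and the 4 further lists, with list medians as solid lines, the median of all genes tested as a dashed line, and filled points for an adjusted p under 0.05 in edgeR. The filled points are PMEL, SOX8 and CDK2 below 0 and CCN1 and CCN2 above 0.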

How the data were processed

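The authors prepared poly(A) libraries (BGISEQ-500, paired reads), used FastQC, Cutadapt and TopHat (build GRCh38.p13), and then had HTSeq count read pairs per gene, ignoring strand. Versions are not given in the sources used here. The deposited counts are whole numbers, not normalized. The deposited signal columns are counts divided by DESeq2 size factors. The deposited ratio (fold), log2 fold change and p-value columns hold the authors' own comparison and were not used.

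The counts were fitted with edgeR 4.0.16 in R 4.3.3 over all 16297 genes past its low-count filter (TMM normalization, quasi-likelihood test, no block, Benjamini-Hochberg adjustment, call under 0.05). The test was also tested on simulated data. Promoter letters and gene models were read in Python 3.11.15. GENCODE release 44 held 24416 of the gene identifiers. The alternatives were DESeq2 1.42.0, other normalizations and filters, a replicate block, removal of the GC trend (lowess, span 0.3) and each library left out. The genes, lists and the rule for named genes (all 10 genes, RIPK4, counted genes that share exon bases with them, hold them whole or lie whole inside them, and per list the called genes or else the 3 smallest p) were chosen with earlier results of these data known. SDs cover 3 libraries per group. The study calls these independent experiments.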

Additional observations from a re-analysis of the deposited data

How the results depend on the processing

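The direction and call of the 10 genes were set against 141 alternative values. Of these, 129 kept both, 4 lost the call with the direction kept (all PMEL with 1 library left out), 4 gained it (DCT with DESeq2, with the GC trend removed and with that and the block, and TYR with DESeq2) and 4 changed sign. With 1 library left out, the log2 fold change ran from -0.054 (neg.si replicate 1 omitted) to 0.150 in MITF, from -0.019 to 0.156 in MLANA (below 0 with neg.si replicate 3 or RIPK4.si replicate 2 omitted) and from -0.234 to 0.041 in TRPM1 (above 0 with RIPK4.si replicate 2 omitted). With no change of sign, it ran from -0.290 to -0.0088 in SOX10, from 0.136 to 0.315 in PAX3 and from 0.237 to 0.489 in TYRP1. Among the overlapping genes it ran from -1.20 to -0.282 in AC025162.1, from -0.307 to 0.288 in POLR2F, from -0.660 to 0.279 in CBX3P7, a pseudogene inside TYR, and from -0.323 to 0.489 in KIAA2026, which also turned to 0.027 with the block and to 0.057 with the GC trend removed and the block.

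The genes called numbered 125, and 430 with DESeq2, 535 with the GC trend removed, 426 with that and the block, and 0 to 295 with 1 library left out (0 when the library omitted was neg.si replicate 2, RIPK4.si replicate 1 or RIPK4.si replicate 3, then 4 for RIPK4.si replicate 2, 70 for neg.si replicate 1 and 295 for neg.si replicate 3). With DESeq2, with the GC trend removed and with that and the block, the calls were 3, 2 and 2 of the 10 genes (1 in the main test), 3, 2 and 2 for melanosome genes (0), 3, 5 and 3 for MITF-linked genes (1) and 4, 4 and 4 for dedifferentiation genes (2). For regulators (1) they were 2 with DESeq2, 2 with the GC trend removed and 1 with that and the block. With 1 library left out they ran from 0 to 1 for the 10 genes, 0 to 1 for regulators, 0 to 1 for melanosome genes, 0 to 2 for MITF-linked genes and 0 to 2 for dedifferentiation genes. The cause of these differences was not tested.

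Samples with the same replicate number deviated together for numbers 2 and 3 (correlation of deviations 0.316 and 0.433) but not for number 1 (-0.295). Differently numbered samples reached 0.489 (neg.si replicate 1 with RIPK4.si replicate 2) and 0.403 (neg.si replicate 3 with RIPK4.si replicate 1), so the numbers were not taken as pairs. With the replicate block, 131 genes were called, PMEL kept its call (adjusted p = 0.0118 in edgeR) and no call of the 10 genes changed. Depth limits TRPM1 most, with 143 to 215 counts per library.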
